A study of Drosophila melanogaster with 12 samples.

Results

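The transcripts of 35 serine protease genes were followed in whole *Drosophila melanogaster*, in males and females, with and without overexpression of *bmm* (*brummer*), the major triglyceride lipase of the fly. The genes were taken from the deposited count table by symbol. All genes named Jon followed by a digit and all Greek-letter genes ending in Try were included, which gave 27 genes, and 8 further proteases were listed by name. They were 35 of the 17807 symbols in the table, namely 11 trypsins (*alphaTry*, *betaTry*, *gammaTry*, *deltaTry*, *epsilonTry*, *zetaTry*, *etaTry*, *thetaTry*, *iotaTry*, *kappaTry* and *lambdaTry*), 16 Jonah genes, and *Phae1*, *Phae2*, *Ser6*, *Ser8*, *Ser12*, *yip7*, *CG18179* and *CG18180*. The rule itself used names and not measured values, but it was set with earlier results of these data known.

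Digestive serine proteases are made by the absorptive cells of the fly midgut as inactive precursors, secreted into the gut lumen and cut there into their active form, where they break dietary protein into peptides for uptake. Trypsins cut after lysine and arginine, and the Jonah genes, known for their transcripts in the midgut, encode related serine endopeptidases. Both families lie in tight clusters of short genes in the fly genome, and their transcripts are among those that follow feeding state and diet.

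RNA was sequenced from *da-GAL4>UAS-bmm* flies (*bmm* overexpression) and *da-GAL4/+* flies (control) of each sex, with 3 libraries per group and 20 flies pooled in each. All groups carried the da-GAL4 driver, in which the *daughterless* promoter drives GAL4 throughout the fly, and only the overexpression flies carried the *bmm* transgene behind UAS. Thus the comparison holds the driver constant and does not include flies with the transgene alone. All flies were adults given 48 h to mature and mate before the sexes were separated, and were fed on SY10/10 food. Their age at freezing is not given in the sources used here. The labels call the libraries biological replicates, and p-values measure the spread between these 3 pools of flies.

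Libraries held from 20068187 to 34799635 counts in total, so that the detection limit of 3 counts corresponded to 0.0862 to 0.149 CPM. CPM, the count over the library total times 1000000, is the unit of all levels, and fold changes are log2 values after TMM scaling, the default library scaling of edgeR. *bmm* itself lay between 11376 and 12636 CPM in *bmm* overexpression males and was at 512, 257 and 202 CPM in control male replicates 1, 2 and 3. It lay between 4155 and 4609 CPM in *bmm* overexpression females and between 118 and 133 CPM in control females. Transcripts of 9 male accessory gland genes summed to 3311 CPM or more in every male library and to 0.487 CPM or less in every female library, as the sex labels say. Transcripts of 16 yolk and eggshell genes, which females make, summed to between 54345 and 63037 CPM in females. In males they summed to between 98.2 and 142 CPM with *bmm* overexpression and to between 441 and 3639 CPM in controls, with control male replicate 1 the highest. Each gene of this list was also set against its mean level in *bmm* overexpression females. The median gene was at 0.239%, 0.15% and 0.166% of that level in *bmm* overexpression male replicates 1, 2 and 3, and at 5.81%, 1.58% and 0.76% in control male replicates 1, 2 and 3. All 16 were detected in every male library, and all 16 were lower in *bmm* overexpression males by the exact test (median log2 fold change -3.94). These values stand beside the male results below, since many of the protease genes were far higher in females.

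The 35 genes fell into 13 groups with gaps of at most 20 kb on the BDGP6 genome (positions from the BDGP6.54 annotation, matched by symbol). All 11 trypsins lay within 20698 bp on chromosome arm 2R, from 11336840 to 11357537. That interval also held *CG13202* and the trypsin-like genes *CG30025* and *CG30031*. Next in size was a stretch of 19228 bp on 3L, from 6035216 to 6054443, with *yip7*, *Jon65Aiv*, *Jon65Aiii*, *Jon65Aii* and *Jon65Ai*, interrupted by *CG6462*. *Jon25Biii*, *Jon25Bii* and *Jon25Bi* took up 5204 bp on 2L, from 4949941 to 4955144, and *Jon99Ciii*, *Jon99Cii* and *Jon99Ci* took up 3974 bp on 3R, from 29922216 to 29926189. *Jon99Fii* lay beside *Jon99Fi*, *Jon66Ci* beside *Jon66Cii*, *CG18179* beside *CG18180*, and *Phae1* only 445 bp from *Phae2*. *Ser12*, *Jon44E*, *Ser8*, *Jon74E* and *Ser6* stood alone, and *Ser6* was the only one of the 35 on the X chromosome. Some neighbours are near-identical in sequence, in particular *gammaTry*, *deltaTry*, *CG30025* and *CG30031*. The authors removed alignments of low mapping quality before counting, so the levels of such copies are uncertain.

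**Figure D1:**
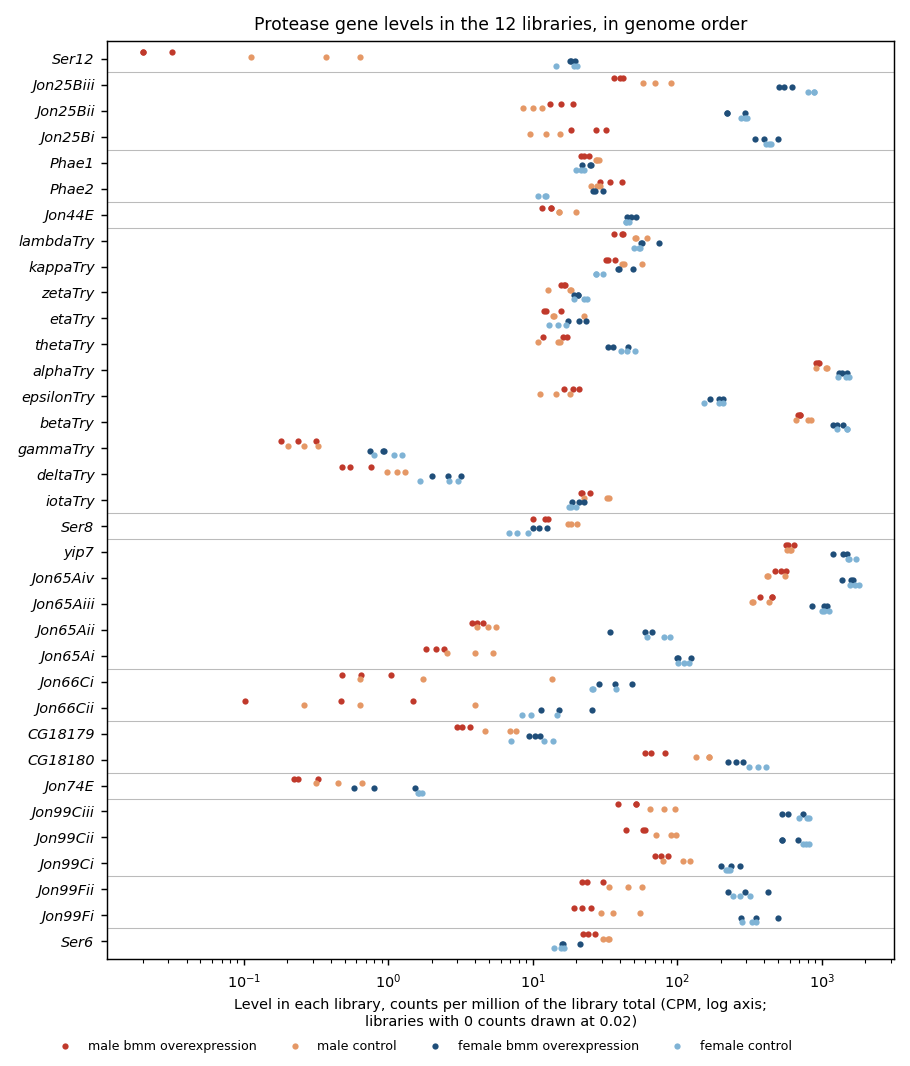
Level of each of the 35 genes in each of the 12 libraries, in CPM on a log axis, with genes in genome order and grey lines between genome clusters; each point is a library, and the 2 *bmm* overexpression male libraries without a count of *Ser12* are drawn at 0.02. *alphaTry*, *betaTry*, *yip7*, *Jon65Aiv* and *Jon65Aiii* lie to the right in all groups. For 25 of the 35 genes all male points lie left of all female points (share over all genes not computed).

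A few genes carried most of the protease transcripts. Together the 35 genes took 0.385% ± 0.00681 of all counts in *bmm* overexpression males and 0.418% ± 0.00929 in control males (SD, n = 3 libraries each). In females the share was 1.1% ± 0.0988 with *bmm* overexpression and 1.23% ± 0.0611 in controls (SD, n = 3 each). The 5 leading genes were *alphaTry*, *betaTry*, *yip7*, *Jon65Aiv* and *Jon65Aiii* in all 4 groups. They made up 82.9% of the summed protease level in *bmm* overexpression males and 77.3% in control males, against 60.1% in *bmm* overexpression females and 58.9% in control females.

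**Figure D2:**
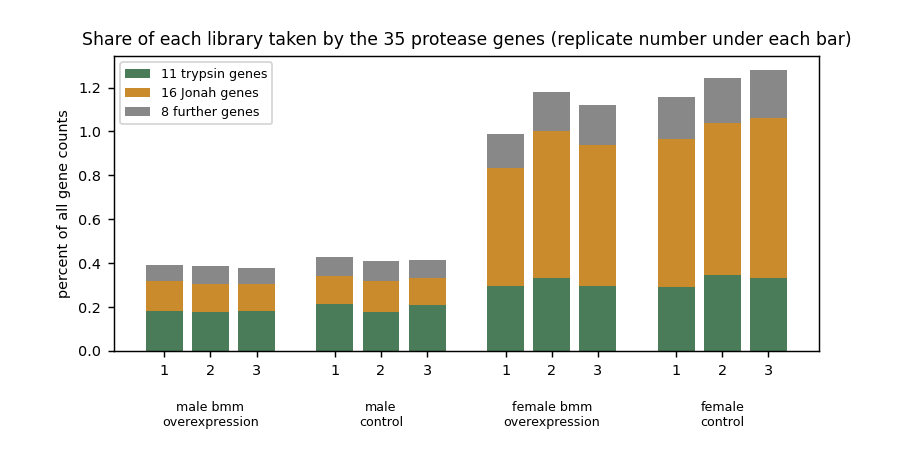
Percent of all gene counts in each library that fell on the 11 trypsins, the 16 Jonah genes and the 8 further genes, with the replicate number under each bar. The bars reach 0.377% to 0.39% in *bmm* overexpression males, 0.41% to 0.428% in control males, 0.987% to 1.18% in *bmm* overexpression females and 1.16% to 1.28% in control females, and the Jonah segment is 0.119% to 0.144% in males and 0.535% to 0.728% in females.

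*alphaTry*, a trypsin, was at 943, 916 and 966 CPM in *bmm* overexpression males and at 1077, 910 and 1095 CPM in control males. It was at 1380, 1497 and 1309 CPM in *bmm* overexpression females and at 1308, 1559 and 1465 CPM in control females. Thus the libraries of the 2 genotypes overlapped in both sexes, and the male libraries lay below the female ones. *betaTry*, its neighbour and close relative, was at 712, 681 and 714 CPM in *bmm* overexpression males and at 838, 664 and 811 CPM in control males. In females the gene was at 1194, 1398 and 1271 CPM with *bmm* overexpression, compared with 1279, 1510 and 1492 CPM in controls, again with overlap of the genotypes.

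*yip7*, a serine protease found as a partner of the Yippee protein, was at 568, 641 and 583 CPM in *bmm* overexpression males and at 602, 611 and 573 CPM in control males. In females the gene was at 1194, 1403 and 1509 CPM with *bmm* overexpression, below each control library (1532, 1549 and 1740 CPM). Of the Jonah genes beside it, *Jon65Aiv* was at 571, 526 and 479 CPM in *bmm* overexpression males and at 421, 559 and 425 CPM in control males. In females *Jon65Aiv* was at 1378, 1607 and 1656 CPM with *bmm* overexpression, compared with 1570, 1696 and 1804 CPM in controls. Its libraries overlapped between genotypes in both sexes. *Jon65Aiii* was at 453, 451 and 372 CPM in *bmm* overexpression males and at 333, 434 and 327 CPM in control males. In females *Jon65Aiii* was at 858, 1045 and 1082 CPM with *bmm* overexpression, compared with 1004, 1041 and 1123 CPM in controls, so the genotypes overlapped for this gene too.

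The 5 leading genes and their shares above were taken from mean CPM without scaling for length. Single genes were ranked against each other per kilobase of exon. On that scale *alphaTry* led in males, with a mean of 1095 ± 29 CPM per kb in *bmm* overexpression males and 1194 ± 119 CPM per kb in control males (SD, n = 3 each). *Jon65Aiv* led in females, with 1711 ± 164 CPM per kb with *bmm* overexpression and 1869 ± 130 CPM per kb in controls (SD, n = 3 each), but the libraries of *alphaTry* in *bmm* overexpression females (1623 ± 110 CPM per kb) and of *yip7* in control females (1778 ± 128 CPM per kb) overlapped with it. In males a wide gap followed the 5 leading genes. The fifth, *Jon65Aiii*, was at 486 ± 53.1 CPM per kb in *bmm* overexpression males and the sixth, *Jon99Ci*, at 85.7 ± 8.67 CPM per kb. In control males *Jon65Aiii* was at 417 ± 68.7 CPM per kb and *CG18180*, the sixth there, at 173 ± 19 CPM per kb. Of the 34 neighbouring pairs in this order, 21 overlapped between libraries in *bmm* overexpression males, 27 in control males, 25 in *bmm* overexpression females and 20 in control females, so much of the middle of the order is not resolved by 3 libraries. *gammaTry*, *deltaTry* and *Jon74E*, and in males also *Ser12*, stood at the low end, where the highest mean was 3.2 ± 0.737 CPM per kb (*deltaTry* in *bmm* overexpression females).

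In males, the comparison asks which protease genes differed when *bmm* was overexpressed. *CG18180* and *Jon25Biii* were lower in *bmm* overexpression males, at 0.444 and 0.542 times their mean CPM in control males. Most genes of the Jon99 clusters were lower too, and *Jon25Bi* and *Jon25Bii* were higher, at 2.09 and 1.59 times the control mean. Of the 35 genes, 32 passed the expression filter. *Ser12*, *gammaTry* and *Jon74E* did not. The main test was the exact test of edgeR, with p-values adjusted by the Benjamini-Hochberg method over all 13632 genes, and by that test 11 members were lower and 2 were higher at an adjusted p-value under 0.05. Over all genes tested, 2.38% were lower and 1.92% were higher. The median log2 fold change was -0.38 over the 32 members and -0.01 over all genes. The libraries of the 2 genotypes did not overlap for 17 of the 32 members (15 below and 2 above), against 22.7% of all genes. *CG18180* and *Jon25Bi* also passed the study's limit of 1 on the absolute log2 fold change, which 1.5% of all genes passed with the p-value limit. By class, 2 of 10 trypsins tested were lower, 5 of 15 Jonah genes were lower and 2 were higher, and 4 of the 7 further genes were lower.

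**Figure D3:**
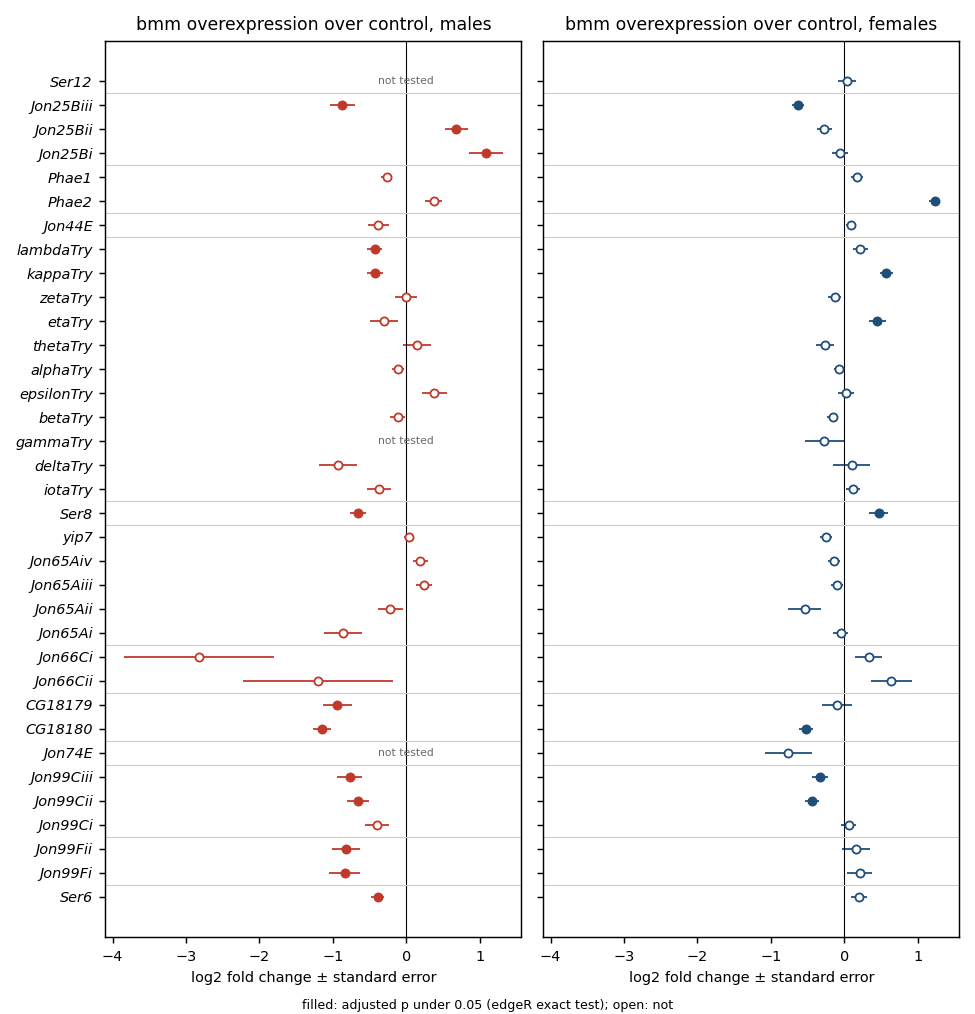
Log2 fold change of each gene, *bmm* overexpression over control, in males (left) and females (right), with bars of 1 standard error from the quasi-likelihood fit; filled points passed edgeR's exact test at an adjusted p under 0.05. In males filled points lie left of 0 for 11 genes and right of 0 for *Jon25Bi* (1.08) and *Jon25Bii* (0.68), whereas in females 4 lie on each side, with *Phae2* (1.23) the farthest.

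Among the trypsins, *kappaTry* was at 33.4, 37.3 and 32 CPM in *bmm* overexpression males and at 41.3, 56.6 and 42.5 CPM in control males. Its log2 fold change was -0.43 (SE 0.11, adjusted p = 0.037). *lambdaTry*, which lies 5 bp from it, was at 36.6, 42.1 and 41.4 CPM in *bmm* overexpression males and at 61.5, 51 and 51.8 CPM in control males, with a log2 fold change of -0.43 (SE 0.1, adjusted p = 0.0111). For both genes every *bmm* overexpression library was below every control library. The other 8 trypsins tested did not pass, and their log2 fold changes ran from -0.93 (SE 0.26, *deltaTry*, adjusted p = 0.0687) to 0.38 (SE 0.17, *epsilonTry*, adjusted p = 0.381). The 95% intervals of the most abundant ones ran from -0.27 to 0.06 for *alphaTry* and from -0.31 to 0.07 for *betaTry*. They use a normal approximation, which can make them too narrow with 3 libraries per group.

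The Jon25B cluster split. *Jon25Biii* was at 36.4, 40.3 and 41.9 CPM in *bmm* overexpression males and at 70.1, 57.6 and 91.3 CPM in control males, with a log2 fold change of -0.87 (SE 0.17, adjusted p = 1.1e-04). *Jon25Bi* was at 32.2, 18.3 and 27.6 CPM in *bmm* overexpression males and at 15.4, 12.4 and 9.5 CPM in control males, with a log2 fold change of 1.08 (SE 0.23, adjusted p = 6.2e-04). *Jon25Bii*, between them, was at 19, 13.2 and 15.8 CPM in *bmm* overexpression males and at 10, 8.58 and 11.6 CPM in control males. Its log2 fold change was 0.68 (SE 0.16, adjusted p = 0.00902). Thus 1 gene of the cluster fell and its neighbours rose, without overlap between the libraries of the genotypes for any of the 3.

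The Jon99 genes lay lower. *Jon99Cii* was at 60.3, 44.3 and 58.2 CPM in *bmm* overexpression males and at 97.5, 71.4 and 90.2 CPM in control males (log2 fold change -0.66, SE 0.15, adjusted p = 0.00411). *Jon99Ciii* was at 51.6, 38.7 and 51.7 CPM in *bmm* overexpression males and at 97.2, 65.3 and 81.5 CPM in control males (log2 fold change -0.77, SE 0.17, adjusted p = 0.00137). These genes are close copies, and reads that fit both equally well could have been removed by the mapping quality filter. *Jon99Fi* was at 21.9, 25.4 and 19.2 CPM in *bmm* overexpression males and at 36, 55.5 and 29.5 CPM in control males (log2 fold change -0.84, SE 0.21, adjusted p = 0.00618). *Jon99Fii* was at 22, 30.5 and 23.7 CPM in *bmm* overexpression males and at 45.7, 57.4 and 33.6 CPM in control males (log2 fold change -0.82, SE 0.19, adjusted p = 0.00229). For these 4 genes all *bmm* overexpression libraries were below all control libraries. *Jon99Ci* overlapped between the genotypes and did not pass (-0.4, SE 0.16, adjusted p = 0.252).

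The remaining Jonah genes tested in males did not pass. *Jon65Aiv*, *Jon65Aiii* and *Jon65Aii* had log2 fold changes of 0.19, 0.24 and -0.22, and *Jon44E*, a Jonah gene that stands alone on 2R, was at -0.38 (SE 0.14, adjusted p = 0.215). *Jon65Ai* was at 2.12 ± 0.29 CPM in *bmm* overexpression males, compared with 3.93 ± 1.37 CPM in control males (SD, n = 3 each), with a log2 fold change of -0.86 (SE 0.26, adjusted p = 0.0687). *Jon66Ci* was singled out after its values were seen. It was at 0.648, 1.05 and 0.474 CPM in *bmm* overexpression males and at 1.75, 13.5 and 0.633 CPM in control males, so that 1 library, control replicate 2, held most of its male counts. Its log2 fold change of -2.82 had an SE of 1.02 and did not pass (adjusted p = 0.0748). *Jon66Cii*, its neighbour, was highest in the same library, at 4 CPM, among control males at 0.632, 4 and 0.261 CPM.

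*CG18180*, annotated as a serine endopeptidase, had the smallest adjusted p of the 35 genes in males. It was at 65.7, 81.9 and 60.3 CPM in *bmm* overexpression males and at 167, 165 and 136 CPM in control males, with a log2 fold change of -1.15 (SE 0.12, adjusted p = 1.4e-13). Its neighbour *CG18179* was at 3.67, 2.98 and 3.25 CPM in *bmm* overexpression males and at 7.67, 6.95 and 4.66 CPM in control males (-0.94, SE 0.2, adjusted p = 0.00452). Both genes of the pair were thus lower in every *bmm* overexpression male library than in any control male library. *Ser8*, a serine protease gene on 2R, was at 10.1, 12.2 and 12.7 CPM in *bmm* overexpression males and at 20.1, 18.5 and 17.6 CPM in control males (-0.66, SE 0.11, adjusted p = 1.6e-04). *Ser6* was at 22.4, 26.8 and 24 CPM in *bmm* overexpression males and at 33.6, 30.4 and 33 CPM in control males (-0.39, SE 0.09, adjusted p = 0.0298). Again the libraries of the genotypes did not overlap for either gene. *Phae1* and *Phae2* did not pass. *Phae1* was at 24.4, 22.8 and 21.6 CPM in *bmm* overexpression males and at 28.8, 27.7 and 27.4 CPM in control males (-0.27, SE 0.07, adjusted p = 0.141), and *Phae2* at 34.5, 41.8 and 29.1 CPM in *bmm* overexpression males against 28, 29.3 and 25.1 CPM in control males (0.37, SE 0.12, adjusted p = 0.142).

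*Ser12* was below the filter in males. It had 0, 1 and 0 counts in *bmm* overexpression males and 22, 9 and 3 counts in control males, or 0, 0.0317 and 0 CPM with *bmm* overexpression against 0.632, 0.368 and 0.112 CPM in controls. The ratio of the summed counts, each over its library totals, was 0.0285 (95% exact interval 0.000701 to 0.17, counting error only), and the exact test run without the filter called it lower. In females the gene was at 19.6, 18.3 and 18.2 CPM with *bmm* overexpression, compared with 20.2, 19.4 and 14.4 CPM in controls. The control male libraries have the same order for *Ser12* as for the yolk and eggshell list. The mean level of *Ser12* in *bmm* overexpression females was multiplied by the yolk and eggshell share of each library. This gives 1.09, 0.295 and 0.142 CPM in control male replicates 1, 2 and 3, which is 172%, 80.3% and 127% of what was measured.

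The same product was computed for the other genes as a description. It was larger than the measured level for 6 of the 35 genes in control male replicate 1, where it came to 24 CPM for *Jon25Bi* (measured 15.4 CPM) and 14.3 CPM for *Jon25Bii* (measured 10 CPM). It was smaller for the genes that were lower in *bmm* overexpression males, at 8.85%, 2.44% and 1.42% of the measured level of *CG18180* in control male replicates 1, 2 and 3 and at 3.23%, 0.953% and 0.482% for *Ser8*. For *Jon25Biii* it was 46.3%, 15.3% and 4.65%, for *Jon99Cii* 34.7%, 12.9% and 4.9%, and for *Jon99Fi* 60.3%, 10.6% and 9.63%. Without control male replicate 1 the exact test again called 13 members, of which 11 were called with all libraries. *Ser6* (adjusted p = 0.0722) and *lambdaTry* (adjusted p = 0.057) were lost, and *Jon66Ci* and *epsilonTry* were gained. *CG18180* then had a log2 fold change of -1.09, *Ser8* of -0.6, *Jon25Biii* of -0.9, *Jon99Cii* of -0.55, *Jon99Ciii* of -0.61 and *Jon25Bi* of 1.28.

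The number called in males depended on the test and on the libraries. edgeR's quasi-likelihood test called 3 members, all lower (*CG18180*, adjusted p = 0.00507; *Ser8*, 0.0297; *Jon25Biii*, 0.0458), against 0.646% of all genes lower by that test. The 10 members it did not call had adjusted p-values from 0.0612 to 0.105 and the same directions. Leaving out 1 library, the exact test called between 8 members, without *bmm* overexpression replicate 1, and 15, without control replicate 3. Over all genes these 2 fits called 175 lower and 171 higher, and 446 lower and 298 higher. With all libraries 325 were lower and 262 were higher.

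In females, *Phae2* was at 2.36 times its control mean with *bmm* overexpression, *kappaTry*, *Ser8* and *etaTry* were higher, and *Jon25Biii*, *CG18180*, *Jon99Cii* and *Jon99Ciii* were lower in *bmm* overexpression flies. All 35 genes passed the filter. By edgeR's exact test over 10488 genes, 4 members were higher and 4 were lower, while 9.8% of all genes were higher and 4.41% were lower. The median log2 fold change was -0.05 over the members and -0.01 over all genes. The genotypes did not overlap for 10 of the 35 genes (5 above and 5 below), against 34.4% of all genes. *Phae2* alone passed the limit of 1 on the absolute log2 fold change as well, which 1.41% of all genes passed with the p-value limit. Of the 11 trypsins, 2 were higher. Of the 16 Jonah genes, 3 were lower. Of the 8 further genes, 2 were higher and 1 was lower.

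*Phae2* (Phaedra 2), a serine protease gene, was at 26.9, 26.2 and 30.6 CPM in *bmm* overexpression females and at 10.9, 12.3 and 12.2 CPM in control females. Its log2 fold change was 1.23 (SE 0.08, adjusted p = 8.3e-32). *Phae1*, 445 bp away, was at 22, 25.4 and 25 CPM in *bmm* overexpression females and at 20, 22.7 and 21.4 CPM in control females, with a log2 fold change of 0.17 (SE 0.08, adjusted p = 0.252). The libraries of the genotypes were thus far apart for *Phae2* and overlapped for *Phae1*.

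*kappaTry* was at 39.3, 38.9 and 49.2 CPM in *bmm* overexpression females and at 27.2, 27.6 and 30.4 CPM in control females (log2 fold change 0.57, SE 0.09, adjusted p = 3.3e-06). *etaTry* was at 20.9, 17.6 and 23.4 CPM in *bmm* overexpression females and at 12.9, 15 and 16.9 CPM in control females (0.45, SE 0.12, adjusted p = 0.00979). *Ser8* was at 11, 10 and 12.5 CPM in *bmm* overexpression females and at 9.22, 7.74 and 6.84 CPM in control females (0.47, SE 0.13, adjusted p = 0.0161). All *bmm* overexpression libraries were above all control libraries for these 3 genes. *lambdaTry* was also higher in each *bmm* overexpression library, at 57.5, 55.7 and 75.1 CPM against 54.9, 54.7 and 50 CPM in controls, but did not pass (0.22, SE 0.1, adjusted p = 0.181). *Ser6* overlapped, at 16, 16.2 and 21.3 CPM in *bmm* overexpression females and at 14.1, 16.4 and 15.8 CPM in control females (0.2, SE 0.11, adjusted p = 0.332).

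Of the genes that were lower, *Jon25Biii* was at 505, 619 and 550 CPM in *bmm* overexpression females and at 799, 889 and 884 CPM in control females (log2 fold change -0.63, SE 0.08, adjusted p = 1.0e-11). *Jon99Cii* was at 534, 681 and 529 CPM in *bmm* overexpression females and at 821, 777 and 742 CPM in control females (-0.44, SE 0.09, adjusted p = 4.4e-04). *CG18180* was at 254, 284 and 225 CPM in *bmm* overexpression females and at 312, 410 and 361 CPM in control females (-0.52, SE 0.1, adjusted p = 7.8e-05). For each of these the genotypes did not overlap. *Jon99Ciii* was at 529, 742 and 582 CPM in *bmm* overexpression females and at 695, 789 and 821 CPM in control females, with 1 *bmm* overexpression library above the lowest control. Its log2 fold change was -0.33 (SE 0.11, adjusted p = 0.0453), and the quasi-likelihood test did not call it (adjusted p = 0.0875).

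The other Jon25B genes did not pass in females. *Jon25Bi* was at 343, 501 and 398 CPM with *bmm* overexpression, compared with 432, 409 and 443 CPM in controls (log2 fold change -0.06, SE 0.11, adjusted p = 0.78). *Jon25Bii* was at 221, 295 and 220 CPM with *bmm* overexpression, compared with 278, 293 and 305 CPM in controls (-0.27, SE 0.1, adjusted p = 0.0905). Both overlapped between the genotypes. *Jon99Fi* was at 275, 351 and 495 CPM with *bmm* overexpression, compared with 328, 281 and 349 CPM in controls (0.21, SE 0.17), *Jon99Fii* at 223, 295 and 422 CPM in *bmm* overexpression against 271, 242 and 320 CPM in control females (0.16, SE 0.19), and *CG18179* at 9.47, 10.3 and 11.2 CPM in *bmm* overexpression against 7.09, 13.7 and 12 CPM in control females (-0.1, SE 0.2). The spread between libraries was larger than the difference for these 3 genes. The remaining members not called ran from -0.76 (SE 0.32, *Jon74E*) to 0.64 (SE 0.28, *Jon66Cii*), with *yip7* nearest to the threshold (-0.25, SE 0.08, adjusted p = 0.0518).

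Female libraries with the same replicate number deviated together, and with the replicate number as a block edgeR's quasi-likelihood test called 15 members, 6 higher and 9 lower, against 11.5% and 9.04% of all genes. The 8 members called without the block were among them. The added ones were *Jon66Ci* (log2 fold change 0.33, SE 0.07, adjusted p = 0.0147) and *Jon66Cii* (0.63, SE 0.12, adjusted p = 0.00779), which were higher, and *Jon65Aii* (-0.58, SE 0.08, adjusted p = 0.00144), *yip7* (-0.25, SE 0.05, adjusted p = 0.0114), *betaTry* (-0.16, SE 0.05, adjusted p = 0.0348), *Jon25Bii* (-0.28, SE 0.08, adjusted p = 0.037) and *Jon65Aiv* (-0.15, SE 0.05, adjusted p = 0.048), which were lower. Without the block, leaving out 1 library gave between 5 calls, without control replicate 2, and 13, without *bmm* overexpression replicate 2. Over all genes these 2 fits called 644 higher and 150 lower, and 854 higher and 270 lower. With all libraries 1028 were higher and 463 were lower. *Ser8* and *etaTry* were each lost in 3 of the 6 cases and *Jon99Ciii* in 4.

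**Figure D4:**
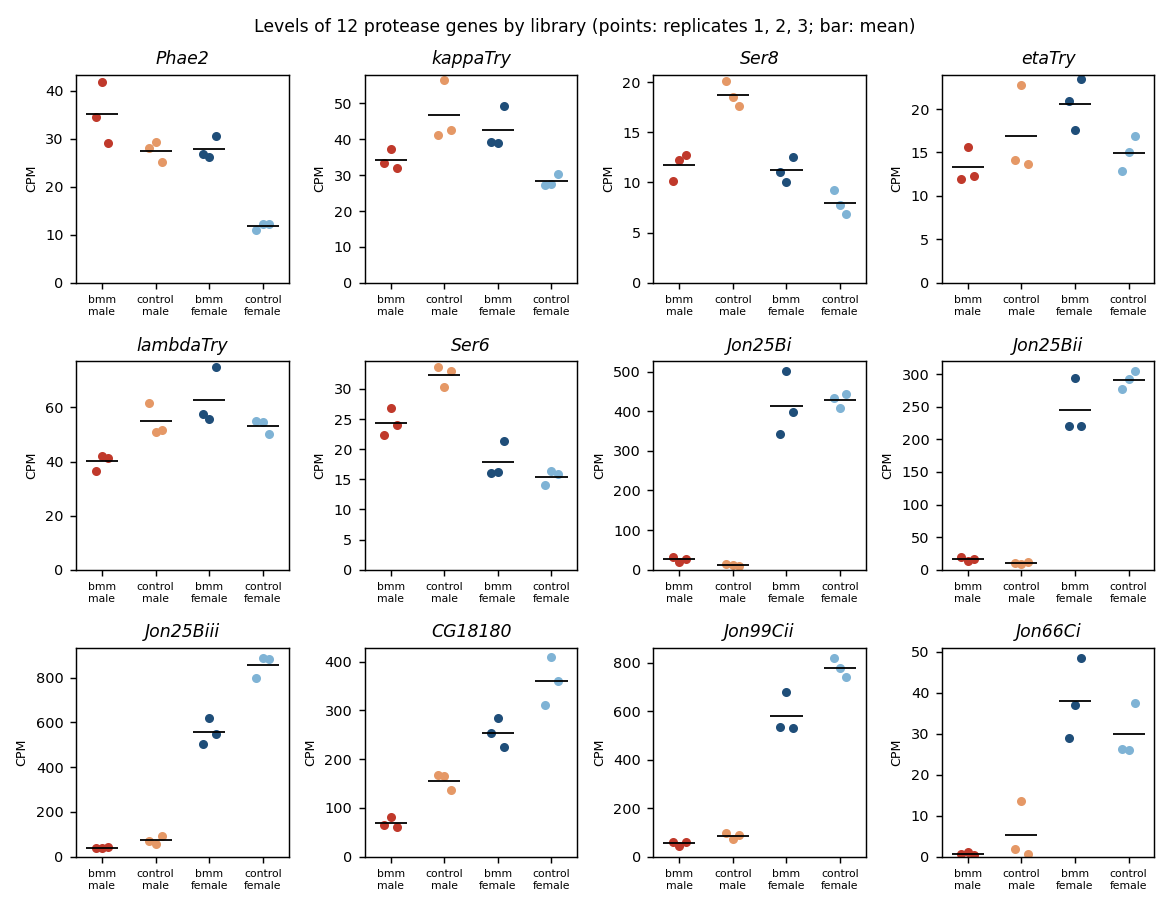
Level of 12 of the genes in each library, in CPM on a linear axis from 0, with the mean of each group as a bar. *Phae2*, *kappaTry*, *Ser8* and *etaTry* are higher in *bmm* overexpression females than in control females, *Jon25Biii*, *CG18180* and *Jon99Cii* are lower in the *bmm* overexpression libraries of both sexes, and *Jon66Ci* shows the single control male library at 13.5 CPM.

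Called in both sexes were 6 genes, which is 46.2% of the 13 called in males and 75% of the 8 called in females. Over the 10252 genes tested in both sexes, the 204 genes called in both were 38.3% of those called in males and 13.8% of those called in females. *CG18180*, *Jon25Biii*, *Jon99Cii* and *Jon99Ciii* were lower in both. *Ser8* and *kappaTry* were lower in *bmm* overexpression males and higher in *bmm* overexpression females. With 1 male library left out, the male call held in 2 of 6 fits for *kappaTry* and in 6 of 6 for *Ser8*. With 1 female library left out, the female call held in 6 of 6 for *kappaTry* and in 3 of 6 for *Ser8*. The difference between the responses, the male log2 fold change minus the female one, was tested in a quasi-likelihood fit of the 12 libraries. By that test 6 members had a less positive and 1 had a more positive response in males, where 2.62% and 0.286% of 13988 genes did. *Ser12* is among the 6 but passed the filter of this fit only through its level in females. The difference was -1.18 for *Ser8* (SE 0.19, adjusted p = 0.00939), -1.03 for *kappaTry* (SE 0.16, adjusted p = 0.00938) and -0.89 for *Phae2* (SE 0.16, adjusted p = 0.0154). It was -0.69 for *lambdaTry* (SE 0.17, adjusted p = 0.0486), -0.47 for *Phae1* (SE 0.1, adjusted p = 0.036) and 0.91 for *Jon25Bii* (SE 0.21, adjusted p = 0.0439). The calls differed in how they held under the 17 alternatives run. *Ser8* was called in 16, *kappaTry* in 15, *Phae2* in 11 and *Jon25Bii* in 9. *Phae1* was called in 5 and *lambdaTry* in 3, and both were lost under RLE scaling and without the filter. The fitted value of *Ser12* (-4.71) rests on a single count in *bmm* overexpression males, depends on the prior count of the fit and is not read as a difference between the sexes.

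For the 4 genes lower in both sexes the difference did not pass without the replicate block. It was -0.67 for *CG18180* (95% interval -1.03 to -0.31, adjusted p = 0.0784), -0.27 for *Jon25Biii* (-0.66 to 0.11, adjusted p = 0.593), -0.25 for *Jon99Cii* (-0.66 to 0.16, adjusted p = 0.649) and -0.48 for *Jon99Ciii* (-0.94 to -0.01, adjusted p = 0.369). *Jon25Bi* had a difference of 1.1 (SE 0.3, adjusted p = 0.0719). With the replicate number as a block, edgeR's quasi-likelihood test called 14 members, 12 less positive and 2 more positive in males, against 4.08% and 0.336% of all genes. *Ser12*, which passed the filter only through females, is among the 12. *CG18180* (-0.67, SE 0.12, adjusted p = 0.0183) and *Jon25Bi* (1.12, SE 0.24, adjusted p = 0.0313) then passed, as did *etaTry*, *Jon44E*, *Jon66Ci*, *Jon66Cii*, *Jon99Fi* and *Jon99Fii*, and *lambdaTry* did not (adjusted p = 0.0859). The numbers paired the female libraries but not the male ones. The median difference was -0.5 over the members and -0.07 over all genes. The number of members called varied with the library left out, and so did the number over all genes. Without control female replicate 2 edgeR called 0 members (3 more positive and 17 less positive at an unadjusted p under 0.05), and DESeq2 called 11 with all libraries. Over all genes edgeR called 40 more positive and 367 less positive with all libraries. Without control female replicate 2 it called 21 and 40, and without control male replicate 3 it called 36 and 515. Without *bmm* overexpression female replicates 1, 2 or 3 the calls were 4, 3 or 2, and without control female replicates 1 or 3 they were 1 or 3. Without *bmm* overexpression male replicates 1, 2 or 3 they were 2, 5 or 3, and without control male replicates 2 or 3 they were 3 or 11. Without control male replicate 1, which held the most yolk and eggshell transcripts, edgeR called 5, of which *Ser8*, *kappaTry*, *Phae2* and *Jon25Bii* were called with all libraries.

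Males and females differed far more than the genotypes did. All 16 Jonah genes were lower in males than in females in both genotypes, and the median Jonah gene differed by -3.96 on the log2 scale with *bmm* overexpression and by -3.18 in controls. Control males held more yolk and eggshell transcripts than *bmm* overexpression males. The part of female transcripts in the control differences was not tested. With *bmm* overexpression, 31 of the 35 genes were lower in males by edgeR's quasi-likelihood test, while 39.8% of 13988 genes were lower and 51.7% were higher. The members not called were *iotaTry*, *Phae2*, *Ser6* and *Ser8*, and 0 were higher, also at an unadjusted p under 0.05. That count depended on the scaling, since RLE scaling, total-count scaling and DESeq2 each called *Phae2* and *Ser6* higher and no longer called *Phae1* lower. In controls 27 were lower and 5 were higher (*Ser8*, *Phae2*, *Ser6*, *kappaTry* and *iotaTry*), while 38.9% of all genes were lower and 53.6% were higher. *Ser12*, *gammaTry* and *Jon74E* are among the genes called lower in males in both genotypes, and *Jon74E* is among the 16 Jonah genes. They failed the filter in males alone and passed it in this fit only through females. Their direction here was thus set by the filter and is not read as a result. The median gene of all tested was itself shifted towards males, by 0.43 with *bmm* overexpression and 0.54 in controls, and by up to 0.81 under other scalings. *kappaTry* (0.46, SE 0.12) and *iotaTry* (0.41, SE 0.14) in controls were within that shift. The median over the members was -2.07 with *bmm* overexpression and -1.8 in controls. Without control male replicate 1 the number called in controls was again 32, with *lambdaTry* gained and *iotaTry* lost. For 25 of the 35 genes every male library, of either genotype, was below every female library, and for *Ser6* every male library was above. The share of all genes separated in this way was not computed. Most genes tested were called between the sexes, so these counts are not read as particular to the proteases.

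Ratios of mean CPM show the range. *Jon25Bi* was 15.9 times higher in females than in males with *bmm* overexpression and 34.4 times in controls. The ratio for *Jon25Bii* was 15.3 with *bmm* overexpression and 29 in controls, and that of *Jon65Ai* was 51.3 with *bmm* overexpression and 28.3 in controls. *Jon25Biii*, *Jon99Cii*, *Jon99Ciii*, *Jon99Fi* and *Jon99Fii* were 10.7 to 16.9 times higher in females with *bmm* overexpression and 6.09 to 11.7 times higher in controls. The product with the yolk and eggshell share, computed above, was set against the measured control male levels. It was 158%, 32.6% and 32.7% for *Jon65Ai* and 156%, 52.7% and 33.1% for *Jon25Bi* in replicates 1, 2 and 3. The part of female transcripts in the control ratios was not tested. Among the trypsins the sexes were unlike from gene to gene. *epsilonTry*, which lies between *alphaTry* and *betaTry*, averaged 18.8 ± 2.25 CPM in *bmm* overexpression males against 191 ± 19.6 CPM in *bmm* overexpression females. In controls it averaged 14.6 ± 3.37 CPM in control males against 186 ± 28 CPM in control females (SD, n = 3 each). The log2 difference was -3.61 (SE 0.18) with *bmm* overexpression and -3.92 (SE 0.18) in controls. Its neighbours *alphaTry* and *betaTry* differed by -0.83 (SE 0.09) and -1.14 (SE 0.1) with *bmm* overexpression and by -0.75 (SE 0.09) and -1.14 (SE 0.1) in controls. *zetaTry* differed by -0.58 (SE 0.13) with *bmm* overexpression and -0.66 (SE 0.13) in controls, and *thetaTry* by -1.61 (SE 0.18) with *bmm* overexpression and -1.97 (SE 0.18) in controls. The direction of *iotaTry* and *Ser8* with *bmm* overexpression, and of *etaTry* and *lambdaTry* in controls, turned with the scaling of the libraries.

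*Ser12* had the largest fitted sex difference of the 35 genes. Its summed counts were 1 in *bmm* overexpression males and 1619 in *bmm* overexpression females, a ratio over the library totals of 0.000607 (95% exact interval 1.53e-05 to 0.00338, counting error only). Since all tissues of the fly were sequenced together, fewer midgut cells and less RNA per midgut cell cannot be told apart in any of these values, nor can a larger share of RNA from other organs, such as the ovary or testis. The tissue that gave the *Ser12* transcripts was not tested.

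**Figure D5:**
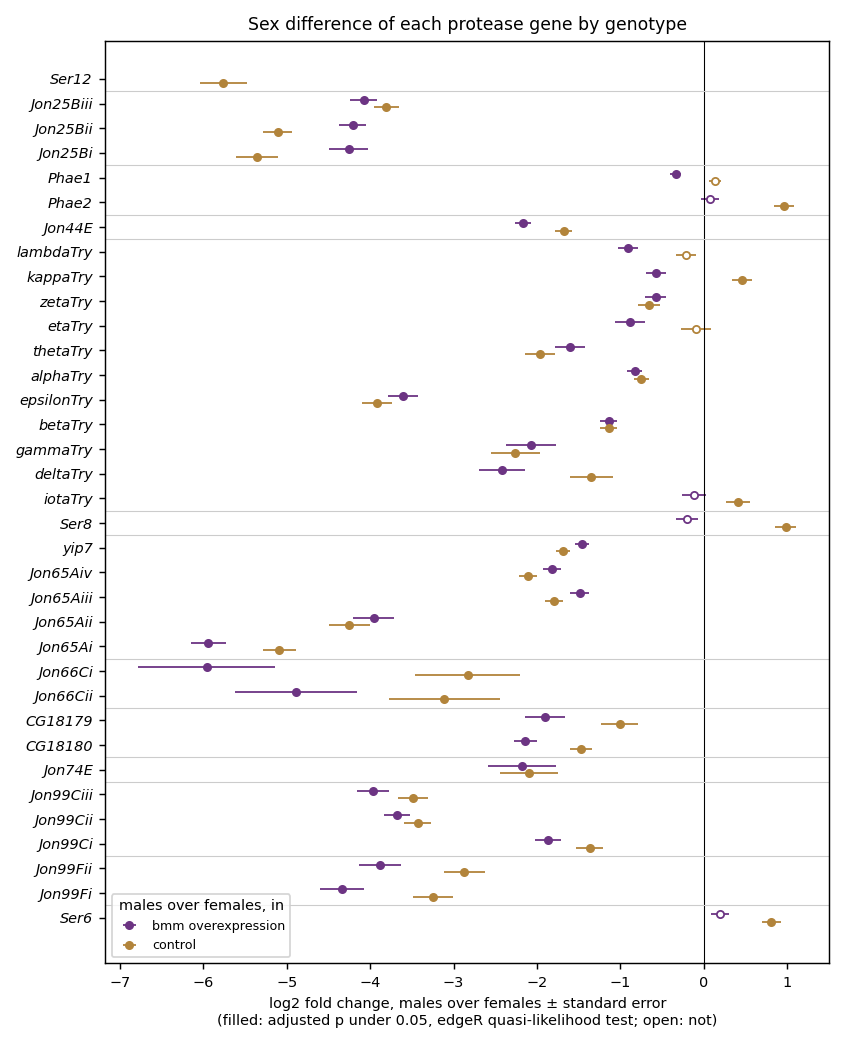
Log2 fold change of each gene, males over females, in *bmm* overexpression flies and in controls, with bars of 1 standard error; filled points passed edgeR's quasi-likelihood test at an adjusted p under 0.05, and *Ser12* with *bmm* overexpression (1 count in males) is left out. All Jonah genes lie left of 0 in both genotypes, with medians of -3.96 and -3.18, and in controls *kappaTry*, *iotaTry*, *Phae2*, *Ser6* and *Ser8* are the filled points right of 0. *Jon74E*, *gammaTry* and *Ser12* passed the filter of this fit only through females.

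Other genes known from the midgut, measured here in whole flies, gave a setting for these values. Of 8 markers of absorptive midgut cells, all detected in every library, 6 were higher in *bmm* overexpression females, against 9.8% of all genes. Their median log2 fold change there was 0.56. Their summed level was 590 to 743 CPM with *bmm* overexpression and 446 to 524 CPM in control females. *mex1*, a gene expressed along the midgut, had a log2 fold change of 0.89 (SE 0.12, adjusted p = 5.7e-10) in females. In males 1 of the 8 was lower (*Myo31DF*, -0.42, SE 0.07, adjusted p = 0.00196), against 2.38% of all genes. The median in males was -0.33, and the summed level was 477 to 571 CPM with *bmm* overexpression and 585 to 871 CPM in controls. For 5 of the 8 the interaction test called the response less positive in males, against 2.62% of all genes. The protease genes had a median of -0.05 in females, where *Phae2*, *kappaTry*, *Ser8* and *etaTry* lay on the same side of 0 as the markers and *Jon25Biii*, *CG18180*, *Jon99Cii* and *Jon99Ciii* on the other, and a median of -0.38 in males. The part of these markers in the protease results was not tested. *lab*, which marks the acid-secreting copper cells, lay between 2.16 and 2.44 CPM in *bmm* overexpression males and between 2.16 and 2.36 CPM in control males, and between 1.04 and 1.19 CPM in *bmm* overexpression females, compared with a range between 0.755 and 1.18 CPM in control females. The summed level of 7 hormone genes of enteroendocrine cells was 324 to 331 CPM in *bmm* overexpression males and 325 to 375 CPM in control males. In females it was 81.4 to 90.1 CPM with *bmm* overexpression and 81.9 to 89.8 CPM in controls. Much of these sums was *CCHa2*, at 204 to 249 CPM in males and 31 to 40.6 CPM in females. The tissue that gave the transcripts of these 7 genes was not tested, so the sums are not read as levels in enteroendocrine cells. The median log2 difference of the 7 genes, males over females, was 0.95 with *bmm* overexpression and 0.82 in controls. Of these 7 genes, 1 was called in *bmm* overexpression females, *Tk* (*tachykinin*), which was lower (-0.33, SE 0.1, adjusted p = 0.0494). The median log2 fold change of the 7 was 0.07 there, with 4 above 0 and 3 below. Over all genes tested, 4.41% were lower. Of 2 midgut progenitor genes, *Dl* (*Delta*) was lower in *bmm* overexpression males (-0.73, SE 0.17, adjusted p = 0.0134) and *esg* was not called (-0.12, SE 0.3, adjusted p = 0.979). *Dl* was at 61 to 74.8 CPM in females. In control male replicates 1, 2 and 3 it was at 11.4, 9.03 and 7.45 CPM, the same order as the yolk and eggshell list. The part of female transcripts in the *Dl* result was not tested.

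Further digestive enzymes were mixed. Over all genes tested, the exact test called 2.38% lower and 1.92% higher in *bmm* overexpression males. In *bmm* overexpression females it called 4.41% lower and 9.8% higher. Of 9 carboxypeptidases tested, which remove single amino acids from the ends of peptides, 4 were lower in *bmm* overexpression males (*CG17633*, *CG18417*, *CG4408* and *CG14820*). In *bmm* overexpression females 4 were lower (*CG12374*, *CG17633*, *CG8560* and *CG8562*) and 1 was higher (*CG3097*). *CG17633* fell in both sexes, by 0.51 on the log2 scale in males (SE 0.11, adjusted p = 0.00466) and by 0.59 in females (SE 0.05, adjusted p = 5.8e-18). The summed level of the list was 335 to 353 CPM in *bmm* overexpression males and 387 to 428 CPM in control males, and 1541 to 2034 CPM in *bmm* overexpression females compared with 2479 to 2822 CPM in control females, without overlap in either sex. Of other gut serine proteases, 5 of 21 tested were lower in *bmm* overexpression males (*CG10472*, *CG11912*, *CG16749*, *CG30031* and *CG7542*). In *bmm* overexpression females 2 of 22 were higher (*CG10477* and *CG7542*) and 1 was lower (*CG30031*), near the shares over all genes. *mag* (*magro*), a lipase of the gut, was lower in both sexes (-0.6, SE 0.18, adjusted p = 0.0431 in males and -0.6, SE 0.19, adjusted p = 0.0203 in females). Of 5 lysozymes tested, 3 were higher in *bmm* overexpression females (*LysB*, *LysD* and *LysX*).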

How the data were processed

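The members and gene lists were chosen with earlier results of these data known. The table deposited by the authors holds unnormalized counts, 1 whole number for each gene symbol and library, made (per the paper and the submitters' processing notes) from stranded mRNA libraries read at 150 bases with HISAT2 on BDGP6, a mapping quality minimum of 60 and featureCounts. Versions and the strand setting are not given in the sources used here. The CPM here were computed from those counts over each library's total. The deposited CPM table was not used.

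Sexes were compared separately by edgeR 4.0.16 in R 4.3.3 with TMM and, as in the study's methods, the exact test, filterByExpr and both thresholds. SEs came from the quasi-likelihood fit. The interaction and the sex contrasts used quasi-likelihood tests over 12 libraries. P-values were Benjamini-Hochberg adjusted over all genes tested. The 95% intervals of fold changes are SE-based with a normal approximation, which can make them too narrow with 3 libraries per group. Alternatives were RLE and total-count scaling, no filter, DESeq2 1.42.0, the quasi-likelihood test, the replicate block and leaving out each library. Fits were tested on simulated data.

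Values in every library are given for members called in a genotype comparison or the interaction and for the 10 with the highest mean CPM. Within other lists mainly called genes are named. *lab*, *esg* and *CCHa2* are named as well, without a call between the genotypes. Replicates of a group differed beyond sampling noise (chi-square per degree of freedom 9.91 to 32.6). Same-numbered *bmm* and control libraries had correlated deviations in females (0.29, 0.196 and 0.401) but not in males (-0.015, 0.112 and -0.027), so the numbers were taken as pairs in females, from the data and not from the labels. Depth ran from 20068187 to 34799635 counts, and the exact intervals of *Ser12* cover counting error only. Protein and promoter sequences were not analysed here.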

Additional observations from a re-analysis of the deposited data

Results flagged for a closer look

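By the quasi-likelihood interaction test over the 12 libraries with Benjamini-Hochberg adjustment, 7 of the 35 genes were called for a difference between the male and the female response to *bmm* overexpression, 6 less positive and 1 more positive in males, against 2.62% and 0.286% of all genes. Without control female replicate 2 edgeR called 0 (3 more and 17 less positive at an unadjusted p under 0.05). Over all genes the calls then went from 40 more positive and 367 less positive to 21 and 40. The male log2 fold change minus the female one was -1.18 for *Ser8*, -1.03 for *kappaTry*, -0.89 for *Phae2*, -0.69 for *lambdaTry* and -0.47 for *Phae1*. Of the 17 alternatives run, *lambdaTry* was called in 3 and *Phae1* in 5. *Ser8* and *kappaTry* were lower in males and higher in females in every *bmm* overexpression library than in any control library of the same sex. The difference was 0.91 for *Jon25Bii*, which was higher in each *bmm* overexpression male library than in any control male library and overlapped between the genotypes in females. The fitted value for *Ser12* was -4.71, but the gene passed the filter only through females, with 1 count summed over the *bmm* overexpression males and 34 over the control males. Its mean level in *bmm* overexpression females times the yolk and eggshell share was 172%, 80.3% and 127% of its measured level in control male replicates 1, 2 and 3.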

How the results depend on the processing

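In females the 8 calls became 15 with the replicate block, and ranged from 5 to 13 with 1 library left out, while the members past both thresholds were 1 to 2 (2 without *bmm* overexpression replicate 2). In males the 13 calls became 3 by the quasi-likelihood test and 9 with the replicate block (7 lower, 2 higher), and ranged from 8 to 15 with 1 library left out. Members past both thresholds in males were 1 by the quasi-likelihood test and 2 to 6 otherwise (3 to 6 with 1 library left out, 6 without control replicate 3). The 7 interaction calls became 11 by DESeq2 and 14 with the replicate block, and ranged from 0 to 11 with 1 library left out. Over all genes the calls of these comparisons changed with the library left out as well. The total counts of calls under RLE scaling, total-count scaling and no filter, and those of the sex contrasts under all alternatives run, stayed within 1.5 times the values given. By direction, members higher in males with *bmm* overexpression went to 2 under RLE scaling, total-count scaling and DESeq2 and to 1 without female *bmm* overexpression replicate 3, against 0. The block could not be fitted for the sex contrasts alone, since the replicate number is nested in sex. The median log2 fold change of the members with 1 library left out lay between -0.45 and -0.35 in males and between -0.1 and 0.06 in females. Among called genes no direction was reversed. The causes of these changes were not tested. The limits are 3 libraries per group, whole flies, near-identical copies whose reads may be lost, and low counts of *Ser12*, *Jon74E* and *gammaTry* in males.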
